A study of Mus musculus with 6 samples.

Results

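Senescence-associated secretory genes are the cytokines, proteases and their inhibitors, growth factors, insulin-like growth factor binding proteins and adhesion molecules that senescent cells are known to release or display. The 38 genes described here were chosen by symbol, and all 38 have a row among the 22600 genes of the count table. RNA-seq was run on mouse cells of C57BL/6 background in 4 groups. FLICs with OHT (1 library) and ES cells with OHT (2 libraries) are labelled TRF2-/- and had received OHT, hydroxytamoxifen, for 3 days. Untreated FLICs (1 library) and untreated ES cells (2 libraries) are labelled wild-type. All cells were cultured for 96 h, and FLICs are differentiated cells that were derived from the ES cells. TRF2, encoded by Terf2, is the shelterin protein that shields chromosome ends from the DNA damage response. No group had OHT with TRF2 intact, so OHT and the loss of TRF2 cannot be told apart.

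Cells that stop dividing after lasting DNA damage, dysfunctional telomeres included, often switch on this secretory programme. The transcription factors NF-kB and C/EBP beta drive much of it, IL-1 alpha at the cell surface sustains it, and IL-6 and the CXC chemokines are among its known products. The metalloproteinases and the urokinase system remodel the matrix around the cell, and fibroblasts and smooth muscle cells make many of these proteins without being senescent. ES cells cycle rapidly and are known to respond weakly to inflammatory signals.

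Promoters of the members were searched for the motifs of NF-kB and AP-1, a factor induced by stress and growth signals, and for the TATA box. Those of 6 members are shown, which range from the abundant Csf1 to Cxcl2, which had no count. RefSeq gives promoter windows on GRCm38.p6 for 29 of the 38 members, in 32 windows of 250 bases before the start. The NF-kB consensus, searched on both strands, was found in 6 of the 32 windows (Ccl20, Csf1, Cxcl1, Cxcl2, Igfbp5 and Il6). It was found in 7.25% of all 32851 windows of the same length that were searched. Those windows leave out a chromosome that holds no member. The AP-1 motif TGANTCA was found in 9 windows of 8 members (Igfbp2, Il1a, Il6, Mmp3, Mmp10, Mmp13, Plaur and Serpinb2), against 6.75% of all windows. The TATA box TATAAA was found in 11 windows of 10 members, against 12.4% of all windows. The 160 bases before the start follow, 5′ to 3′ on the strand of the gene, with matches to any of the 3 motifs in capitals. Cxcl1 and Cxcl2 each hold overlapping NF-kB matches on both strands, and the AP-1 match of Il6 lies outside the bases shown.
Csf1 (chr3:107760470-107760629, minus strand): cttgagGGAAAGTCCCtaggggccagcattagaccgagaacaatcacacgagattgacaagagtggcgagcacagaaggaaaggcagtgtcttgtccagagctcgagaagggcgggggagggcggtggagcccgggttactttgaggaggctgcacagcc
Il6 (chr5:30012954-30013113, plus strand): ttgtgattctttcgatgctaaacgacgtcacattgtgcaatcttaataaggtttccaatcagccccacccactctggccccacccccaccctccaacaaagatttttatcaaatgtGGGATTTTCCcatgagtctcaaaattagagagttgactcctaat
Cxcl1 (chr5:90891085-90891244, plus strand): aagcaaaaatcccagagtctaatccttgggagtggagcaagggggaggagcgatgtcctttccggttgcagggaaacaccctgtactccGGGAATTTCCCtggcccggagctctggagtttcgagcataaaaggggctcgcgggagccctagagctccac
Cxcl2 (chr5:90903739-90903898, plus strand): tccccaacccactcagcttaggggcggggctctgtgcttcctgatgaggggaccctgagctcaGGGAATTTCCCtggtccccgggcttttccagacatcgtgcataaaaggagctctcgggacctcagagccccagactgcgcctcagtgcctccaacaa
Mmp13 (chr9:7272354-7272513, plus strand): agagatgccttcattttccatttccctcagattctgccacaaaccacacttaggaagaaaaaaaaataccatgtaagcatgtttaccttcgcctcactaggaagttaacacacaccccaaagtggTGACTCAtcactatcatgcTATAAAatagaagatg
Mmp3 (chr9:7445662-7445821, plus strand): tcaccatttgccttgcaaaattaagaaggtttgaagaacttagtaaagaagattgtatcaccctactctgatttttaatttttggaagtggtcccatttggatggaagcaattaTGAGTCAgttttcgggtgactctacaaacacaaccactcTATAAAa
A match is a description of these letters only. Csf1 reached 273 CPM (CPM, read counts relative to library size, scaled by TMM) in FLICs with OHT and 336 CPM in untreated FLICs, while Cxcl2, with a similar NF-kB match, had 0 counts in each of the 6 libraries.

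Total counts ran from 23534551 to 43965309 per library. Terf2 had 0.114 CPM in FLICs with OHT against 8.27 CPM in untreated FLICs, and 0.281 and 0.392 CPM in ES cells with OHT against 18.3 and 19.5 CPM in untreated ES cells, so each library matched its label. The ES cell libraries with OHT stood apart from each other: 470 of 12698 genes averaging 1 CPM or more were 2-fold apart on the log2(CPM + 1) scale in that pair, against 0 of 12149 in the untreated ES cell pair. Of 14 members at that level in ES cells with OHT, 2 were as far apart: Plaur was 1.12 higher and Mmp14 1.11 lower in replicate 2 than in replicate 1, on the log2(CPM + 1) scale. Of 6 ES cell markers, Zfp42 was at 0 in both FLICs libraries, and their summed level was 59.7 and 100.4 CPM in FLICs with and without OHT, against 3162 to 3615 CPM in the ES cell libraries. The labels name no tissue that FLICs stand for. A list of 4 smooth muscle markers summed to 9451 and 7137 CPM in FLICs with and without OHT, and a list of 10 fibroblast and mesenchymal markers to 2186 and 1269 CPM. In the ES cell libraries those sums ran from 3.94 to 15.5 CPM and from 8.51 to 13.4 CPM. Nearly all of the smooth muscle sum in FLICs came from Acta2 (7921 and 5936 CPM with and without OHT) and Tagln (1517 and 1194 CPM). Myh11, of the same list, had 0.275 and 0.309 CPM in FLICs with and without OHT, and from 0.406 to 1.53 CPM in the ES cell libraries.

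More of the secretory genes were expressed in FLICs than in ES cells. A count was recorded for 36 members in FLICs with OHT and 35 in untreated FLICs, and for 23 and 28 in ES cells with OHT and 23 and 23 in untreated ES cells. A level of at least 100 CPM was reached by 10 and 9 members in FLICs with and without OHT, by 2 and 1 in ES cells with OHT, and by 1 and 1 in untreated ES cells. Together the members held 0.327% and 0.317% of all TPM (a level that divides by gene length) in FLICs with and without OHT. They held 0.0861% and 0.116% in ES cells with OHT, and 0.0659% and 0.0714% in untreated ES cells. The heat map of levels by library shows more bright rows in the FLICs columns than in the ES cell columns, which are dark in most rows.

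**Figure D1:**
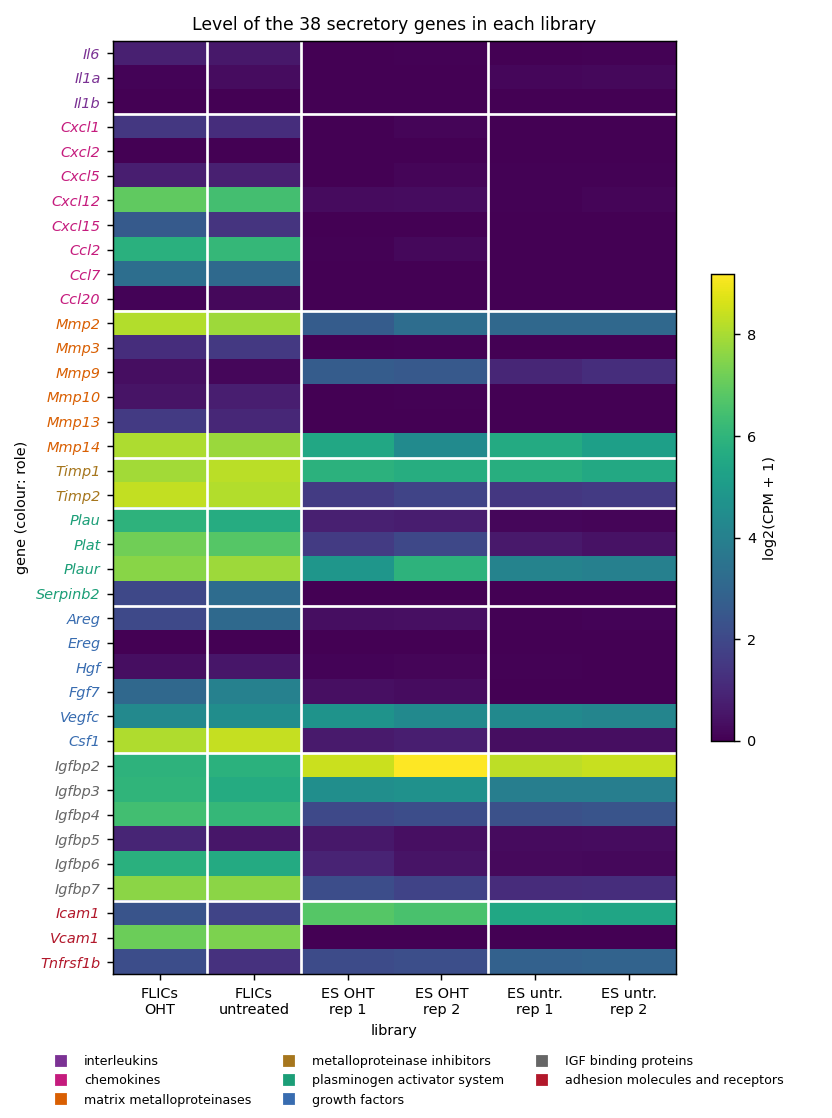
Level of each of the 38 secretory genes (rows, coloured by role) in the 6 libraries (columns), as log2(CPM + 1), where 0 is no count. The 2 FLICs columns are bright for the metalloproteinases Mmp2 and Mmp14, the inhibitors, Plau, Plat, Plaur and Csf1, among others. The ES cell columns are bright for Igfbp2, Timp1, Icam1, Mmp14, Plaur and Vegfc.

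Per length, the most abundant members in FLICs with OHT were Timp2 (593 TPM), Timp1 (470.1 TPM), Cxcl12 (398 TPM) and Igfbp7 (247 TPM). The same 4 led in untreated FLICs, with Timp1 at 583 TPM, Timp2 at 505 TPM, Cxcl12 at 281 TPM and Igfbp7 at 245 TPM. Timp1 and Timp2 are tissue inhibitors of metalloproteinases, Cxcl12 is the stromal chemokine that holds CXCR4-bearing cells in place, and Igfbp7 binds insulin-like growth factors and collects in the matrix. In each of the 4 ES cell libraries the order began with Igfbp2, Timp1 and Icam1. Igfbp2, a secreted carrier of insulin-like growth factors, had 501 and 816 TPM in ES cells with OHT and 411 and 481 TPM in untreated ES cells.

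The interleukins and Cxcl1, Cxcl2 and Cxcl5 had at most 1.81 CPM in any library. Il1b and Cxcl2 had 0 counts in all 6 libraries, and a count of 0 allows up to 3 counts, or 0.0686 to 0.118 CPM per library. Ereg, an EGF receptor ligand, had 1 count in FLICs with OHT and 0 in the others. Il6 had 33 counts (0.755 CPM) in FLICs with OHT and 16 counts (0.494 CPM) in untreated FLICs, against 0 and 1 count in ES cells with OHT and 0 and 1 count in untreated ES cells. Il1a, the surface alarm cytokine, had 3 and 8 counts in FLICs with and without OHT, 0 and 0 in ES cells with OHT, and 4 and 5 in untreated ES cells. Il1a, Il1b, Cxcl2, Ccl20 and Ereg did not pass the filter on low counts and were not tested, which left 33 members.

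FLICs and ES cells were compared within each treatment with edgeR's quasi-likelihood test, Benjamini-Hochberg adjustment over 15535 genes and calls at 0.05. The single FLICs library of each comparison is assumed to vary like the ES cell libraries. Members with no or few counts in ES cells passed the filter through FLICs alone, so their place among the calls follows from the filter. In bulk RNA, fewer cells of a type and less RNA per cell cannot be told apart. With OHT, 26 of the 33 members tested were higher in FLICs, 3 were lower and 4 were not called. Over all genes, 28.4% were called higher and 29.3% lower. Without OHT, 27 were higher, 4 were lower and 2 were not called, beside 26.2% and 28.7% of all genes. The median log2 fold change of the members tested was 5.16 with OHT and 7.23 without, and 5.16 and 4.87 with groups at 0 counts set at their bound, against -0.07 and -0.11 over all genes. DESeq2 called 23 members higher in each comparison.

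The 6 chemokines tested had at most 0.235 CPM in any ES cell library and passed the filter through FLICs, so their calls as higher follow from it and their levels are given as a description. Ccl2, which recruits monocytes, had 55.4 CPM in FLICs with OHT against 0.0312 and 0.157 CPM in ES cells with OHT. It had 68.1 CPM in untreated FLICs against 0 counts in untreated ES cells, at least 1538-fold higher. Its neighbour on chromosome 11, Ccl7, had 9.06 and 7.87 CPM in FLICs with and without OHT and 0 counts in the 4 ES cell libraries. Cxcl12 had 123 CPM in FLICs with OHT against 0.218 and 0.235 CPM in ES cells with OHT, and 86.7 CPM in untreated FLICs against 0.0331 and 0.0798 CPM in untreated ES cells. The edgeR log2 fold change of Cxcl12 was 9.06 ± 0.25 (SE, adjusted p 4.1e-05) with OHT and 10.44 ± 0.29 (adjusted p 3.9e-05) without. Of the ligands of the neutrophil receptor CXCR2, Cxcl1 had 1.81 and 1.3 CPM and Cxcl5 0.709 and 0.772 CPM in FLICs with and without OHT. Cxcl5, Cxcl15, Cxcl1, Cxcl2, Ereg and Areg are neighbours on chromosome 5 (GRCm38, from 90759360 to 91148432), and in untreated FLICs their levels ran from 0 CPM for Cxcl2 and Ereg to 7.75 CPM for Areg.

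The proteases of the matrix divided between the cell types. Mmp2, the gelatinase of stromal cells, had 281 CPM in FLICs with OHT against 5.46 and 8.82 CPM in ES cells with OHT, and 229.7 CPM in untreated FLICs against 7.68 and 7.67 CPM in untreated ES cells. Mmp14, the membrane enzyme that activates pro-Mmp2, was 3.03 ± 0.44 higher in FLICs on the log2 scale with OHT (adjusted p 0.00241) and 2.45 ± 0.44 higher without (adjusted p 0.00551). Mmp9, the other gelatinase, went the opposite way. It had 0.275 CPM in FLICs with OHT against 5.4 and 4.94 CPM in ES cells with OHT, and 0.123 CPM in untreated FLICs against 0.993 and 1.3 CPM in untreated ES cells. The log2 fold change of Mmp9 was -4.22 ± 0.44 with OHT (edgeR adjusted p 0.000692) and -3.18 ± 0.51 without (adjusted p 0.00373). The stromelysins Mmp3 and Mmp10 and the collagenase Mmp13, classic secretory enzymes that share an AP-1 match in the windows above, lay between 0.389 and 1.92 CPM in the FLICs libraries and had at most 1 count in any ES cell library. Timp1 had 239.9 and 298 CPM in FLICs with and without OHT, 58.3 and 52.4 CPM in ES cells with OHT, and 53.7 and 46 CPM in untreated ES cells. Timp2 had 325 and 277 CPM in FLICs with and without OHT and between 1.79 and 2.67 CPM in ES cells.

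Of the 4 genes of the plasminogen activator system, Plau, Plat and Plaur were called higher in FLICs in both comparisons. Plau, the urokinase that turns plasminogen into plasmin, had 61.1 CPM in FLICs with OHT against 0.749 and 0.667 CPM in ES cells with OHT, and 50.8 CPM in untreated FLICs against 0.132 and 0.0798 CPM in untreated ES cells. Plaur, its receptor, had 188 CPM in FLICs with OHT against 27.2 and 60.2 CPM in ES cells with OHT, and 231 CPM in untreated FLICs against 16.1 and 15.1 CPM in untreated ES cells. Serpinb2, an inhibitor of urokinase, had 2.97 and 8.49 CPM in FLICs with and without OHT and 0 counts in ES cells. It passed the filter through FLICs alone, so its calls as higher follow from the filter. Exons of Serpinb2 overlap those of Serpinb10, and exons of Igfbp7 those of Polr2b, so reads could have been shared between them.

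Csf1, the growth factor of macrophages, was the most expressed of the growth factors in FLICs. It had 273 CPM in FLICs with OHT against 0.593 and 0.706 CPM in ES cells with OHT, and 336 CPM in untreated FLICs against 0.265 and 0.266 CPM in untreated ES cells. Fgf7, the keratinocyte growth factor made by stroma, and Areg, an EGF receptor ligand, were also higher in both comparisons. Fgf7 had 0 counts in untreated ES cells, so without OHT it could only come out higher. Vegfc, which drives lymphatic growth, was the exception: it had 18.9 CPM in FLICs with OHT against 25.1 and 19.5 CPM in ES cells with OHT, and 21.9 CPM in untreated FLICs against 19.3 and 17.2 CPM in untreated ES cells. Its log2 fold change of -0.24 ± 0.23 with OHT and 0.26 ± 0.23 without did not pass the test (edgeR adjusted p 0.405 and 0.351). Hgf, the ligand of Met, had 11 and 15 counts in FLICs with and without OHT and at most 2 counts in any ES cell library. It passed the filter through FLICs, so its call as higher without OHT follows from the filter (edgeR log2 fold change 4.65 ± 1.11, adjusted p 0.0153). With OHT its 1.80 ± 0.96 was not called (adjusted p 0.155), and the difference between the comparisons did not pass its own edgeR test (adjusted p 0.765).

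The binding proteins of insulin-like growth factors also divided. Igfbp3, Igfbp4, Igfbp6 and Igfbp7 were higher in FLICs in both comparisons, by 1.47 to 6.39 on the log2 scale with OHT and by 1.81 to 8.16 without. Igfbp2 was lower in FLICs: it had 59.8 CPM in FLICs with OHT against 349 and 582 CPM in ES cells with OHT, and 56.9 CPM in untreated FLICs against 306 and 341 CPM in untreated ES cells. Igfbp5 did not pass the test in either comparison. The adhesion molecules and receptors split as well. Vcam1, the endothelial and stromal ligand of the integrin VLA-4, had 138 and 164 CPM in FLICs with and without OHT and 0 counts in ES cells, at least 2649.6-fold higher with OHT and at least 3708-fold higher without. Icam1, the ligand of leukocyte integrins, had 4.28 CPM in FLICs with OHT against 108 and 91.9 CPM in ES cells with OHT, and 2.69 CPM in untreated FLICs against 43.4 and 41.3 CPM in untreated ES cells. Its log2 fold change was -4.55 ± 0.23 with OHT (edgeR adjusted p 7.4e-05) and -3.98 ± 0.23 without (adjusted p 0.000107). Tnfrsf1b, the second TNF receptor, was 2.14 lower on the log2 scale without OHT (log2 fold change -2.14, adjusted p 0.002), and its 0.01 ± 0.26 with OHT was not called (adjusted p 0.964).

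**Figure D2:**
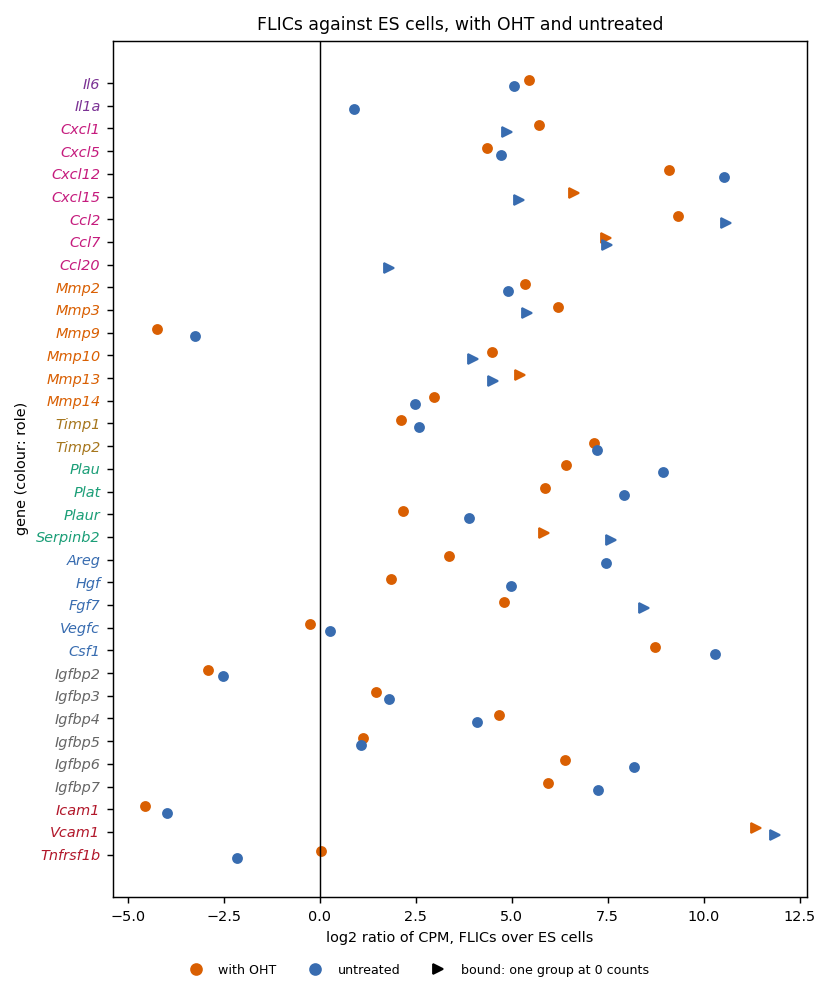
Log2 ratio of CPM, FLICs over ES cells, for each secretory gene with more than 3 counts in at least 1 group, with OHT and untreated; triangles are lower bounds where the ES cell libraries had 0 counts. Most points lie to the right of 0, and Mmp9, Igfbp2 and Icam1 lie to the left in both treatments.

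Some calls in the comparison of cell types rest on few counts. For Il6 the FLICs to ES cell ratio of CPM was 43.5 with OHT (exact 95% interval 7.27 to 1768, counting error only) and 33.5 without (5.2 to 1404). DESeq2 did not call Il6 (adjusted p 0.0841 with OHT and 0.101 without), Cxcl5 (0.104 and 0.0662) or, with OHT, Mmp10 (0.232). Leaving out untreated ES cell replicate 1 ended the edgeR calls without OHT of Il6 (adjusted p 0.0883) and Cxcl5 (0.0569), and leaving out replicate 2 those of Cxcl5 (0.0702) and Hgf (0.12). The fibroblast, mesenchymal and smooth muscle markers given above were mostly higher in the same FLICs libraries. Thy1 and Pdgfra, of the fibroblast list, and Myh11, of the smooth muscle list, had lower levels there. Of those tested, 7 of 9 fibroblast and mesenchymal and 3 of 4 smooth muscle markers were called higher in each comparison. The share called higher over all genes was 28.4% with OHT and 26.2% without. Several of the fibroblast markers had few counts in ES cells and passed the filter through FLICs, so their calls follow from it. The part of the markers in the result was not tested.

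In ES cells, 2 secretory genes were called higher with OHT, Icam1 and Plat, and 0 were called lower. Icam1 (chromosome 9, 21015985 to 21028817, plus strand) had 108 and 91.9 CPM in ES cells with OHT against 43.4 and 41.3 CPM in untreated ES cells, means of 99.9 ± 11.4 and 42.3 ± 1.45 CPM (SD, n = 2 each). Its log2 fold change was 1.24 ± 0.15 (SE, edgeR adjusted p 0.0412). Plat (chromosome 8, 22757727 to 22782844, plus strand), the tissue plasminogen activator, had 2.06 and 3.02 CPM in ES cells with OHT against 0.53 and 0.373 CPM in untreated ES cells, means of 2.54 ± 0.679 and 0.451 ± 0.111 CPM. Its log2 fold change was 2.49 ± 0.30 (edgeR adjusted p 0.046). In both genes the lower OHT library lay above the higher untreated one. The call of Icam1 was lost without untreated replicate 1 (adjusted p 0.389) or replicate 2 (0.441), and that of Plat likewise (0.123 and 0.215) and with a filter of 5 CPM in 2 libraries (0.0628).

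Of all 15535 genes, 0.521% were called higher with OHT and 0.0129% lower, so 2 of 33 members stand beside a small background. At an unadjusted p under 0.05, 13 members were higher and 1 was lower, against 10.5% and 7.79% of all genes. DESeq2 called 9 members higher and 0 lower, against 1.95% and 0.588%. Both OHT libraries lay above both untreated ones in 18 of the 33 members and below them in 2, against 25.2% and 27.6% of all genes. The median log2 fold change of the members tested was 0.89, against -0.01 over all genes. Without OHT replicate 2 that median was 0.27. It was 0.31 in the full fit with members at or under 3 counts in both groups set to 0 and other groups at 0 counts set at their bound. The count of 2 higher became 0 without either untreated replicate and 12 without either OHT replicate.

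The members next to the threshold by adjusted p were Plau and Mmp9. Plau (chromosome 14, 20836660 to 20843385) had 0.749 and 0.667 CPM in ES cells with OHT against 0.132 and 0.0798 CPM in untreated ES cells, with a log2 fold change of 2.74 ± 0.35 (edgeR adjusted p 0.0501). Mmp9 (chromosome 2, 164940780 to 164955850) had 5.4 and 4.94 CPM with OHT against 0.993 and 1.3 CPM untreated, with 2.16 ± 0.29 (adjusted p 0.0527). Neither gene's groups overlap, and both passed the test under DESeq2 (adjusted p 0.00139 for Plau and 0.00545 for Mmp9). Plaur had 27.2 and 60.2 CPM with OHT against 16.1 and 15.1 CPM untreated. The OHT libraries of Plaur differed from each other by more than the lower of them differed from the untreated ones, and it did not pass under edgeR (log2 fold change 1.48 ± 0.37, adjusted p 0.149), while DESeq2 called it (1.53, adjusted p 0.000891). Mmp14, in ES cells the most expressed metalloproteinase among the members, had 44.5 and 20.1 CPM with OHT against 47.5 and 35.2 CPM untreated (edgeR adjusted p 0.642). Timp1 had 58.3 and 52.4 CPM with OHT against 53.7 and 46 CPM untreated (adjusted p 0.616). The groups of both genes overlap.

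No growth factor and no binding protein was called by edgeR, and among those tested Igfbp4 was the one with a negative value (-0.30 ± 0.17, adjusted p 0.392). Fgf7 had 0.312 and 0.235 CPM in ES cells with OHT against 0 counts in untreated ES cells, at least 6.28-fold higher over the group (edgeR adjusted p 0.0772). Areg had 9 and 8 counts with OHT against 1 and 2 counts untreated (log2 fold change 2.65 ± 0.52, adjusted p 0.115). Igfbp7 had 3.56 and 2.63 CPM with OHT against 1.26 and 1.28 CPM untreated (1.29 ± 0.21, adjusted p 0.0772). Igfbp3 had 22 and 24.3 CPM with OHT against 14.1 and 14.1 CPM untreated (0.71 ± 0.14, adjusted p 0.115). In these 4 genes the groups do not overlap. DESeq2 called Fgf7 (adjusted p 0.0152), Igfbp7 (0.000475), Igfbp3 (0.0203) and Igfbp6 (0.0228) higher. Igfbp2, the most abundant member in ES cells, had 349 and 582 CPM with OHT against 306 and 341 CPM untreated, and its OHT libraries lay farther apart than the group means (adjusted p 0.336). Tnfrsf1b was the one member with an unadjusted p under 0.05 and a negative value: 3.25 and 3.65 CPM with OHT against 6.19 and 6.6 CPM untreated (-0.89 ± 0.21, adjusted p 0.146).

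**Figure D3:**
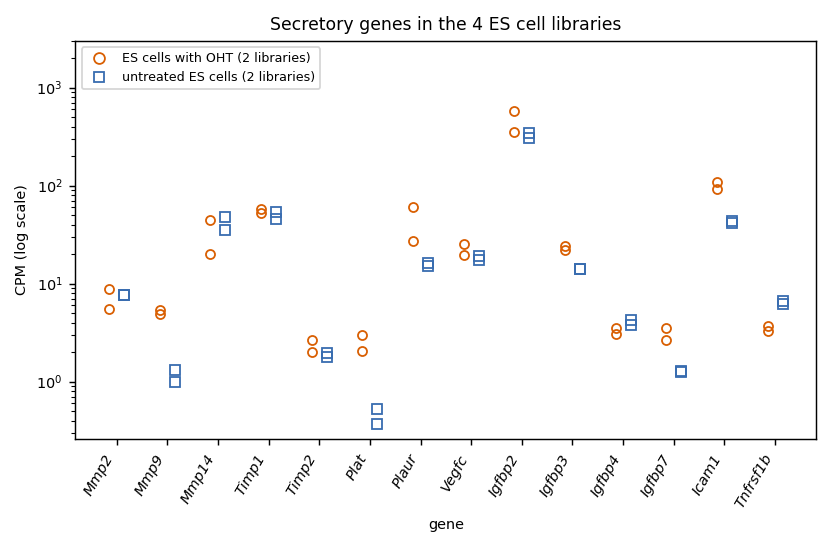
CPM on a log scale in the 4 ES cell libraries, for the 14 secretory genes that averaged 1 CPM or more there; circles are ES cells with OHT and squares are untreated ES cells. The circles of Icam1, Plat, Mmp9, Igfbp7 and Igfbp3 lie above both squares, and those of Plaur and Mmp14 are far apart.

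**Figure D4:**
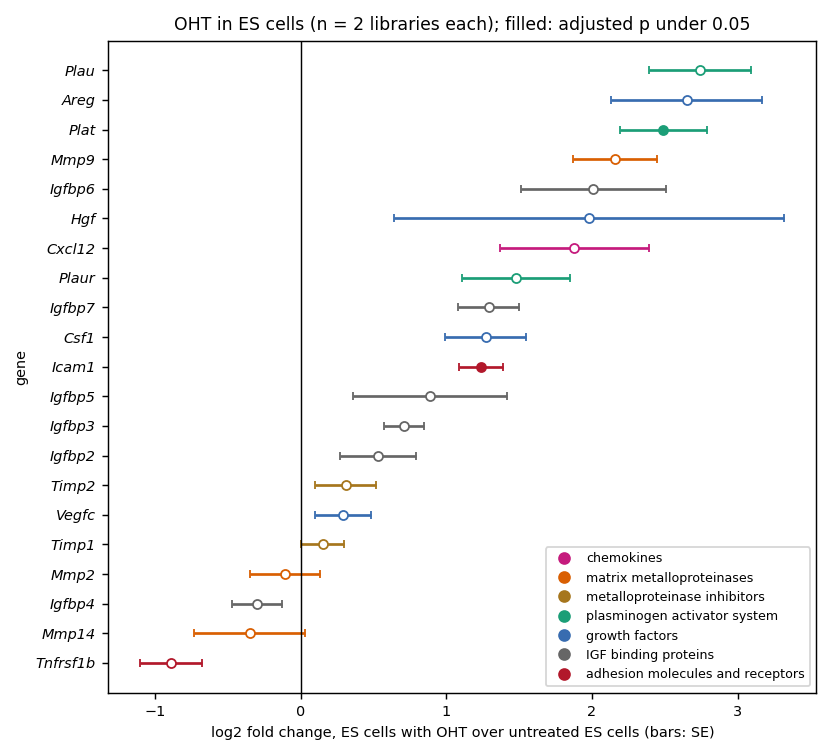
Log2 fold change of ES cells with OHT over untreated ES cells with its SE (edgeR, 2 libraries each), for secretory genes with counts in both groups and more than 3 in at least 1; filled points are called at an adjusted p under 0.05. Plat and Icam1 are filled, and Tnfrsf1b, Mmp14, Igfbp4 and Mmp2 lie left of 0.

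The interleukins and several chemokines had few counts to compare. Il6 had 0 and 1 count in ES cells with OHT and 0 and 1 count in untreated ES cells, and Cxcl1 had 0 and 2 counts against 0 and 0. Ccl2 had 1 and 4 counts with OHT against 0 and 0 untreated, at least 1.96-fold higher over the group, and was not called (edgeR adjusted p 0.243). Il1a had 0 and 0 counts with OHT against 4 and 5 untreated, at least 2.55-fold lower over the group and untested. Il6 and Cxcl1 lay at or under 3 counts in both groups, so a fall or a small rise in them was not detectable at this depth. With OHT they reached at most 0.0392 and 0.0784 CPM. Ccl2 was called without OHT replicate 1 (adjusted p 0.00499). Summed marker levels in ES cells with OHT and in untreated ES cells stood beside these values as follows. The 10 fibroblast and mesenchymal markers summed to 11.4 and 13.4 CPM with OHT against 8.51 and 9.05 CPM untreated, with Postn at 0 in 1 OHT library and both untreated ones. The 4 smooth muscle markers summed to 6.83 and 15.5 CPM against 3.94 and 4.92 CPM. The 6 macrophage and blood markers summed to 28.3 and 61.6 CPM against 25.1 and 26 CPM, nearly all from Cd68, with Adgre1 at 0 in all 4 libraries and Ptprc at 0 in all but 1 OHT library. The 5 endothelial markers summed to 100.1 and 177 CPM against 127 and 154 CPM, mostly from Pecam1 (83.1 and 152 against 116 and 140.4 CPM). The 6 epithelial markers summed to 1083 and 899 CPM against 918 and 833 CPM, mostly from Cdh1 (884 and 682 against 778 and 684 CPM). Within these lists Tie1, an endothelial receptor, and Krt18, a keratin, were called higher with OHT (log2 fold change 4.39 ± 0.41, edgeR adjusted p 0.025, and 1.34 ± 0.16, adjusted p 0.0414). The smooth muscle genes Acta2 (1.40 ± 0.21, adjusted p 0.0678) and Tagln (1.74 ± 0.46, adjusted p 0.16) and the collagen gene Col1a2 (1.99 ± 0.60, adjusted p 0.189) had higher values and were not called. Their part in the OHT values was not tested.

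In FLICs, OHT was compared in 1 library per condition, so no test was made and intervals cover counting error only. Of 27 members that averaged 1 CPM or more, 1 was at least 2-fold higher with OHT on the log2(CPM + 1) scale and 2 were at least 2-fold lower, against 0.424% and 0.102% of 11789 genes. Cxcl15, a lung-expressed CXC chemokine, had 224 counts (5.12 CPM) in FLICs with OHT against 52 counts (1.61 CPM) in untreated FLICs, a ratio of CPM of 3.19 (exact 95% interval 2.35 to 4.4). Serpinb2 had 130 counts (2.97 CPM) against 275 (8.49 CPM), a ratio of 0.35 (0.282 to 0.433). Areg had 134 counts (3.07 CPM) against 251 (7.75 CPM), a ratio of 0.396 (0.318 to 0.49). Of the rest the widest differences on that scale were those of Fgf7 (-0.91), with 7.66 against 15.3 CPM, Tnfrsf1b (0.87), with 3.48 against 1.45 CPM, and Mmp13 (0.53), with 1.92 against 1.02 CPM, followed by Icam1 (0.52) and Cxcl12 (0.49).

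For the other members the FLICs libraries were closer. Over the 27 members the difference was positive in 17 and negative in 10, with a median of 0.23 against 0.03 over all genes. The 5 binding proteins at that level were positive (median 0.24), of which Igfbp7 turned from 0.01 to -0.02 under relative log expression (RLE) scaling, and the 4 growth factors were negative (median -0.61) under both scalings. Csf1 had 273 CPM with OHT against 336 CPM untreated, Ccl2 55.4 against 68.1 CPM, Timp1 239.9 against 298 CPM and Plaur 188 against 231 CPM. Cxcl12 had 123 CPM with OHT against 86.7 CPM untreated, and Plat 144 against 107 CPM. Il6 had 33 counts against 16, a ratio of CPM of 1.53 (0.818 to 2.97), which includes 1. The fibroblast and mesenchymal markers were also higher in the OHT library, in 7 of 7 at that level (median 0.77), and Col1a1 had 881 against 495 CPM. The 4 smooth muscle markers summed to 9451 against 7137 CPM. Their part in these differences was not tested.

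**Figure D5:**
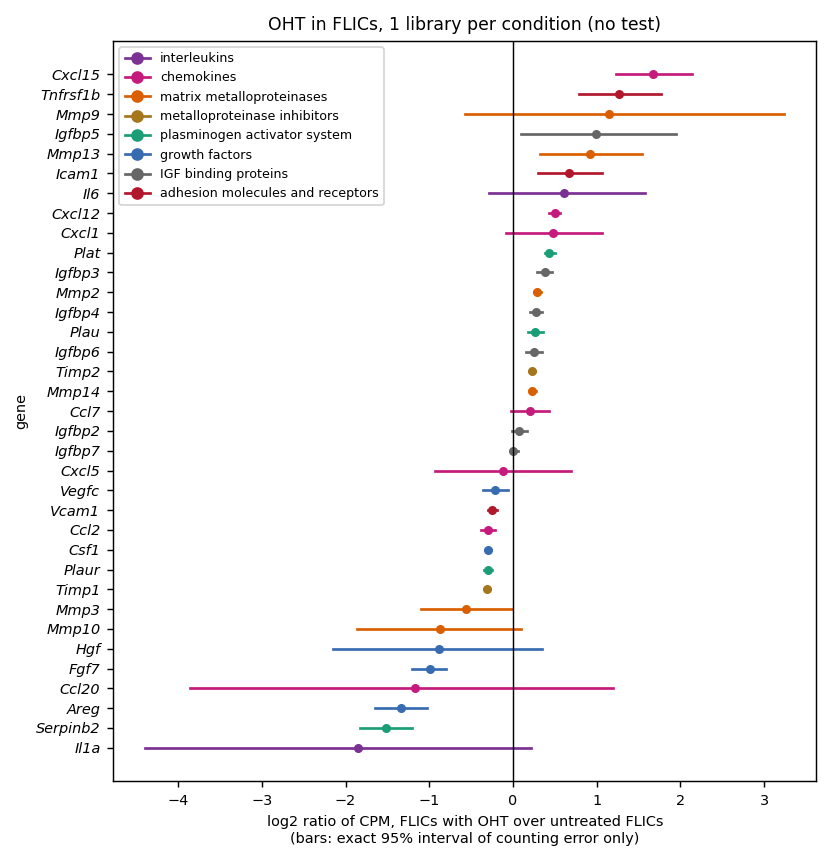
Log2 ratio of CPM, FLICs with OHT over untreated FLICs (1 library each), with the exact 95% interval of counting error, coloured by role, for secretory genes with counts in both libraries. Cxcl15 is highest, Serpinb2 and Areg have narrow intervals left of 0, and members with few counts such as Il1a, Ccl20 and Mmp9 have intervals that include 0.

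The response to OHT in FLICs minus that in ES cells was tested in the same edgeR fit. It called 0 of the 33 members and 0 of 15535 genes (0%), and the smallest adjusted p of a member was 0.638. At an unadjusted p under 0.05, 1 member was higher and 9 were lower, against 6.80% of all genes, and DESeq2 called 1 member, Plat, lower, against 0.129% of all genes. The median difference of the members was -0.57, against 0.07 over all genes. Areg had the response of opposite sign in the 2 cell types given above, a difference of -3.98 ± 0.64 on the log2 scale (unadjusted p 0.00091). Plau differed by -2.47 ± 0.43, Plat by -2.05 ± 0.42, Csf1 by -1.57 ± 0.34 and Tnfrsf1b by 2.15 ± 0.38. Leaving out OHT replicate 1 or 2 of the ES cells gave 9 and 11 members called lower and 2 and 2 higher, with the spread then taken from the untreated pair alone. Over all genes these fits called 1003 lower and 1801 higher of 15330 without replicate 1, and 743 lower and 1304 higher of 15259 without replicate 2.

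The receptors that the members bind were listed as 18 genes, of which 14 were tested. In FLICs with OHT against ES cells with OHT, 7 were higher and 4 lower, beside 28.4% and 29.3% of all genes. Without OHT 6 were higher and 3 lower, beside 26.2% and 28.7%. Il1r1, the signalling receptor of IL-1, had 61.2 CPM in FLICs with OHT against 0.312 and 0.196 CPM in ES cells with OHT, and 59.5 CPM in untreated FLICs against 0.199 and 0.16 CPM in untreated ES cells. Met (log2 fold change 4.70 with OHT and 5.20 without), Egfr (5.13 and 5.01) and Fgfr2 (4.31 and 4.56), the receptors of Hgf, Areg and Fgf7, were called higher as well. Cxcr2, the receptor of Cxcl1, Cxcl2 and Cxcl5, had 0 counts in all 6 libraries. In ES cells 0 of the 14 receptors were called with OHT, beside 0.521% of all genes called higher and 0.0129% lower. Met was at 0.68 ± 0.27 (edgeR adjusted p 0.266). In FLICs, 12 of 12 that averaged 1 CPM or more had a higher value with OHT, by a median of 0.33 against 0.03 over all genes. Il1r1 was at 0.04, and 0 of the 12 differed 2-fold, beside 0.424% of all genes higher and 0.102% lower. With 1 library per condition this was not tested.

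The 21 regulators of the NF-kB, C/EBP and IL-1 pathways gave 20 tested genes. Of these, 15 were higher and 1 lower in FLICs with OHT against ES cells with OHT, beside 28.4% and 29.3% of all genes. Without OHT 14 were higher and 1 lower, beside 26.2% and 28.7%. Tnfaip3, a feedback inhibitor of NF-kB, was higher by 2.88 and 4.10 on the log2 scale with and without OHT, Nfkbiz, a nuclear cofactor of NF-kB, by 3.60 and 3.65, Gata4 by 3.67 and 3.49 and Cebpb, which encodes C/EBP beta, by 3.34 and 3.19. Relb was the one lower. In ES cells 0 of the 20 were called with OHT, beside 0.521% of all genes called higher and 0.0129% lower. At an unadjusted p under 0.05, 2 were higher and 2 lower, beside 10.5% and 7.79% of all genes. These were Tnfaip3 at 1.01 ± 0.34, Cebpd at 0.86 ± 0.26, Irak1 at -0.54 ± 0.13 and Nfkb1 at -0.48 ± 0.15 (edgeR adjusted p from 0.142 to 0.219). In FLICs, 0 of the 20 differed 2-fold with OHT, beside 0.424% of all genes that averaged 1 CPM or more higher and 0.102% lower.

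Genes of the senescence arrest and the nuclear lamina, 11 in all, gave 4 higher and 3 lower in FLICs with OHT against ES cells with OHT, and 4 higher and 5 lower without OHT, beside 28.4% and 29.3% of all genes with OHT and 26.2% and 28.7% without. Cdkn2a, which encodes p16 and ARF, had 665 CPM in FLICs with OHT against 40.7 and 42.5 CPM in ES cells with OHT, and 580.3 CPM in untreated FLICs against 38.9 and 36 CPM in untreated ES cells. Cdkn2b and Cdkn2c, further inhibitors of cyclin-dependent kinases, were also higher in FLICs, by 4.32 and 4.83 with OHT and by 4.90 and 4.03 without. Cdkn1a, the p53 target that encodes p21, was lower, with 3.29 CPM in FLICs with OHT against 19.1 and 32.9 CPM in ES cells with OHT, and 1.79 CPM in untreated FLICs against 37.4 and 37.3 CPM in untreated ES cells. In ES cells 0 of the 11 were called with OHT, beside 0.521% of all genes called higher and 0.0129% lower. Trp53 had 8.39 and 83.1 CPM in ES cells with OHT against 299 and 345 CPM in untreated ES cells, a log2 fold change of -2.82 ± 0.94 that did not pass (edgeR adjusted p 0.214), and 7.82 and 8.98 CPM in FLICs with and without OHT. In FLICs, 0 of the 11 differed 2-fold with OHT, beside 0.424% of all genes that averaged 1 CPM or more higher and 0.102% lower. Lmnb1, the lamin that senescent cells are known to lose, had 266 CPM in FLICs with OHT against 267 CPM in untreated FLICs. Its level was 828 and 613 CPM in ES cells with OHT and 990.4 and 859 CPM in untreated ES cells. Without OHT it was called lower in FLICs than in ES cells (log2 fold change -1.80 ± 0.26, edgeR adjusted p 0.00253).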

How the data were processed

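The deposited file gives unnormalized counts, whole numbers for each gene in the 6 libraries, with gene lengths. RNeasy RNA went into TruSeq Stranded Total RNA LT libraries, per the labels' protocols. Salmon, DESeq2 and GRCm38 are named, without versions, in the submitters' processing notes, and strand use in counting is not given in the sources used here. Symbols matched 22509 gene IDs and did not match 91, and positions are from GENCODE on GRCm38. Of the deposited lengths, 77.6% are multiples of 3, as in coding lengths, and TPM was computed from these lengths and the deposited counts.

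Counts were fitted with edgeR 4.0.16 in R 4.3.3 (filterByExpr by group, TMM, 1 mean per group over 6 libraries), which left 15535 genes, 2 residual and 3.79 prior degrees of freedom and a common biological coefficient of variation of 18.5%. CPM uses TMM-scaled library sizes. SE is the log2 fold change divided by the square root of F. The procedure was also tested on simulated data. The labels do not state separate cultures for the 2 libraries of an ES cell group. The p-values therefore rest on a spread that may be technical. A fold against a group at 0 uses a floor of 3 counts over the group. Ratios carry exact 95% conditional binomial intervals (scipy 1.17.1), and no molecular identifiers are named, so intervals and floors cover counting error only. Alternatives were RLE scaling, DESeq2 1.42.0, other filters and pseudocounts, a replicate block and leaving out each ES cell library.

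The members and the lists of receptors, regulators, arrest genes and markers were chosen with earlier results of these data known. Any member could be named. Of each other list, up to 4 genes that averaged 1 CPM or more and had the largest changes per comparison were named. Cdkn2a, Cxcr2, Col1a1, Cd68, Thy1, Pdgfra, Tie1, Krt18, Acta2, Tagln, Myh11, Pecam1, Cdh1, Col1a2, Relb and Lmnb1 were added after their values were seen. Of the marker lists, genes at 0 were named.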

Additional observations from a re-analysis of the deposited data

How the results depend on the processing

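With OHT in ES cells, the number of members called higher was 2 and became 4 with RLE scaling, 9 with DESeq2, 6 with no count filter, 1 with 5 CPM in 2 libraries and 10 with a replicate block, and ran from 0 to 12 when 1 library was left out. The number called lower was 0, became 1 with the replicate block and ran from 0 to 2 without 1 library. Without an OHT library the spread comes from the close untreated pair alone, and the calls over all genes came to 3053 higher and 3112 lower without OHT replicate 1 and to 2266 and 2116 without OHT replicate 2. The members' median of 0.89 became 0.94 (RLE), 0.94 (DESeq2), 0.61 (no filter), 1.05 (5 CPM) and 0.86 (replicate block), and 0.27 to 1.12 without 1 library. Values without a call changed sign for Mmp2 (-0.45 to 0.20) and Mmp14 (-1.04 to 0.15) without 1 library. The replicate numbers share only a number: differences between replicates 2 and 1 correlated at 0.345 between the ES cell groups, over 2 pairs. The replicate block moved calls over all genes to 814 higher and 392 lower.

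For FLICs against ES cells, 5 CPM in 2 libraries left 17 members called higher without OHT and 17 with OHT, since fewer members were tested. Without OHT the median was 6.30 with no filter and 6.05 with 5 CPM. With OHT it was 5.11 (RLE), 5.25 (DESeq2), 4.75 (no filter), 4.95 (5 CPM) and 5.33 (replicate block), and 4.57 to 5.94 without 1 library. Tnfrsf1b with OHT changed sign near 0, at -0.04 (RLE), -0.04 (DESeq2) and -0.07 (5 CPM), and ran from -0.07 to 0.08 without 1 library. In the difference of the OHT responses, DESeq2 called 1 member lower and the replicate block 1 (Fgf7), and leaving out 1 library gave 0 to 2 higher and 0 to 11 lower. Its median was -0.65 (RLE), -0.65 (DESeq2), -0.50 (no filter), -0.61 (5 CPM) and -0.56 (replicate block), and -1.25 to -0.58 without 1 library. For OHT in FLICs, a pseudocount of 0.5 gave 2 members higher (Cxcl15 and Tnfrsf1b) and a mean of at least 5 CPM gave 0, and the median was 0.05 with no minimum and 0.07 with 5 CPM. The causes of the other changes were not tested. Of the members' own values under all alternatives, 150 of 203 kept direction and side of the threshold for OHT in ES cells, 276 of 286 and 278 of 284 for FLICs against ES cells with and without OHT, and 69 of 89 for the difference of responses. For each comparison of groups, these counts leave out members at or under 3 counts in both. For FLICs against ES cells they include members with no or few counts in ES cells, whose direction was largely fixed by the filter. They also include fits that left out an ES cell library of the other treatment, which kept all libraries compared. That agreement was therefore in part set in advance. For the difference of responses they hold only members with an edgeR unadjusted p under 0.05. The interleukins and CXCR2 ligands had at most 5 counts in any ES cell library, so small changes in them could not be measured there.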
